A study of Homo sapiens with 4 samples.

Results

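The nuclear genes for subunits of the 5 oxidative phosphorylation complexes were followed in A549 cells, a human lung carcinoma line in wide use, with and without induction of A-FOS. They were chosen by symbol alone, as protein-coding genes of the NDUFA, NDUFB, NDUFC, NDUFS, NDUFV, SDHA to SDHD, UQCR, COX4 to COX8 and ATP5 families, leaving out the NDUFAF and SDHAF assembly factors. The rule found 89 of the 58051 genes counted in each library, or 89 of the 19737 that GENCODE 29 lists as protein-coding. Complex I had 39 members, complex II 4, complex III 9, complex IV 17 and complex V 20.

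PolyA RNA was sequenced from 2 untreated libraries (minus Dox) and 2 libraries from cells given 1 µg/mL doxycycline (plus Dox). All 4 libraries carry A-FOS, inserted at random by piggyBac transposase and switched on by doxycycline. A-FOS pairs with JUN proteins in place of FOS and keeps the pair off DNA, and so acts as a dominant negative of AP-1. Doxycycline is a tetracycline antibiotic, and drugs of this class act on bacterial and mitochondrial ribosomes. No library given the drug without the transgene was analysed here, so effects of doxycycline and of A-FOS cannot be told apart. The labels leave out the length of treatment, whether the cells are 1 clone, and whether the 2 libraries of each condition are separate cultures. Each p-value below thus rests on the spread between these libraries alone, and that spread may be technical.

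Total counts ran from 31104964 to 40526912 per library, and pairwise correlations of log2 levels were 0.993 within each group and 0.964 to 0.966 between groups. FOS, whose reads can come from the transgene too, stood at 1.36 and 1.52 CPM (the counts of a gene relative to the TMM-scaled library size) without doxycycline and at 48.6 and 51.0 CPM with it. Keratin genes marked the cells as epithelial in all libraries, and the summed level of 6 epithelial markers went from 12630 and 12970 to 6489 and 6293 CPM. In that list 5 of 6 genes were lower with TMM scaling and with library size alone, while 3 were lower and 2 higher with the trend of GC content, length and level removed. The largest fall was that of KRT7 (from 4544 ± 139 to 526 ± 3.07 CPM, SD, n = 2). Leukocyte markers summed to 1.34 to 3.19 CPM with CD3E at 0, endothelial markers to 0.805 to 2.107 CPM, and fibroblast markers to 39.7 to 49.6 CPM, of which COL1A1 made up 34.35 to 43.7 CPM. The part of the fall in epithelial markers in the results below was not tested.

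Oxidative phosphorylation couples the oxidation of NADH and succinate to ATP synthesis in the inner mitochondrial membrane. Complex I takes electrons from NADH and complex II from succinate, both pass them to ubiquinone, complex III hands them on to cytochrome c, and complex IV reduces oxygen. Complexes I, III and IV pump protons, and complex V, the ATP synthase, lets them back through its membrane ring to drive its catalytic head. Complexes I, III, IV and V combine nuclear-encoded subunits with a few made from mitochondrial DNA, and complex II is encoded by nuclear genes only. The 13 mRNAs made from mitochondrial DNA have 0 counts in all 4 libraries, so nothing can be said of that side of the complexes.

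Promoters of such genes are known for sites of NRF1, of the ETS family factor GABP (also called NRF2) and of YY1. RefSeq promoter sequences (GRCh38.p14, 250 bases before to 50 after the start) were matched by symbol for 70 of the 89 members. For 15 of these 70 the RefSeq start lies more than 500 bases from the GENCODE 29 gene start. Their windows may not be the promoters in use, and they are kept in the shares below. Windows were searched on both strands for 7 strings, none of which contains another. The NRF1 string, GCGCA and GCGC with any 1 base between them, was in 24.3% of member windows, against 6.29% of all 27305 RefSeq windows and 8.63% of 15246 protein-coding ones. CCGGAAG (ETS) was in 28.6%, against 10.7% of all windows and 14.4% of protein-coding ones. AAGATGGCG (YY1) was in 11.4%, against 1.85% and 2.81% in the same order. TGACGTCA, the cyclic AMP response element (CRE), was in 7.14%, against 1.98% and 2.65%. TGANTCA, the AP-1 site that FOS and JUN bind, was in 5.71%, against 7.76% and 5.71%. CCAAT stood at 35.7% in members and in all windows, and TATAAA at 10% in members and 11.9% in all windows. A match is a description of letters and not of a bound site, and no match says only that these letters are not in this window.

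The 4 sequences below are the 250 bases before the RefSeq start of the members with the largest rises and falls among those with a promoter entry within 500 bases of the GENCODE 29 gene start (55 of 70). They are shown so that the promoters of members that went opposite ways can be set side by side. NDUFA5 and NDUFC2 rose more, but NDUFC2 had no promoter entry and the RefSeq start of NDUFA5 lies 43396 bases from the GENCODE 29 gene start. ATP5F1D fell more than ATP5ME, but had no promoter entry either. Capitals mark matches to the NRF1, ETS, YY1, CRE and AP-1 strings on either strand. Those of SDHD (chr11:112086623-112086872, plus strand) and NDUFC1 (chr4:139302552-139302801, minus strand) belong to genes that rose. Those of NDUFS8 (chr11:68030431-68030680, plus strand) and ATP5ME (chr4:674277-674526, minus strand) belong to genes that fell with TMM scaling. The fall of ATP5ME did not pass with the trend of GC content, length and level removed, and most of its exon bases are shared with MYL5.
SDHD: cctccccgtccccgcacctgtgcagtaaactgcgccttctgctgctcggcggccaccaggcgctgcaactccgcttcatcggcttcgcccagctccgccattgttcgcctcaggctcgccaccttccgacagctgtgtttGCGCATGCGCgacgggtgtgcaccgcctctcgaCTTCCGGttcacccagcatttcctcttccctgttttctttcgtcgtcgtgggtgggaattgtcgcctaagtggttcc
NDUFC1: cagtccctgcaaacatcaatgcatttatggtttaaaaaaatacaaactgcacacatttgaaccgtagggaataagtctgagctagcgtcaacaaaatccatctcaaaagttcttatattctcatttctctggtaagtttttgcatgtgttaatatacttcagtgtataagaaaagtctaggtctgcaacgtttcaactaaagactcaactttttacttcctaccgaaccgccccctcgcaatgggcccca
NDUFS8: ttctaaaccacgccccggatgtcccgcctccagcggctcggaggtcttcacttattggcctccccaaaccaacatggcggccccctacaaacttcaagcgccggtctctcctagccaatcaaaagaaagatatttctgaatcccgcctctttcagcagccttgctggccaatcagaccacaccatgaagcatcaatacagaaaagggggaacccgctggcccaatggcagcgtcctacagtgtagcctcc
ATP5ME: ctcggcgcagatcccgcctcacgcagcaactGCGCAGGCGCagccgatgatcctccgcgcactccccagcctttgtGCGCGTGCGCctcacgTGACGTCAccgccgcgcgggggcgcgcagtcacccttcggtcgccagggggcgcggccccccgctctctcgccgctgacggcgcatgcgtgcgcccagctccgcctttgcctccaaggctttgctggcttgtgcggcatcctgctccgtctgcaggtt

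SDHD holds an NRF1 match that begins 110 bases before the start and an ETS match at 77 bases. ATP5ME holds NRF1 matches at 219 and 174 bases and a CRE match at 158 bases. Neither NDUFC1 nor NDUFS8 holds any of these strings in this stretch. The NRF1 string was thus in the promoter of a member that rose and of one that fell. Over all members with a promoter entry, it was in 2 of 5 that rose, 7 of 38 that fell and 7 of 23 that did not pass the test. For the ETS string these numbers were 1 of 5, 13 of 38 and 6 of 23, and for the AP-1 string 0 of 5, 3 of 38 and 0 of 23. All these counts include the 15 members whose RefSeq start lies beyond the distance limit used for the sequences shown. NDUFA5, which rose, is among them, as are COX4I1, UQCRC1, NDUFV1 and ATP5MC2, which fell. Counts without these members are not given.

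Of the 89 members, 82 had enough counts to be tested with edgeR's quasi-likelihood test at an adjusted p threshold of 0.05. With doxycycline 44 were lower (53.7%), 8 were higher (9.76%) and 30 did not pass. Over all 18046 tested genes 56.9% were past the threshold, 28.4% higher and 28.4% lower. The share of members past the threshold in either direction (63.4%) was thus near the background, and their split between directions was not. Their median log2 fold change was -0.18, beside 0.001 over all tested genes, and the middle of the absolute changes was 0.23. Levels in the groups did not overlap for 12 members that were above and 55 that were below with doxycycline. Over all tested genes 77% did not overlap, 38.7% above and 38.3% below. Counts are relative within a library, and in bulk RNA fewer cells of a type and less RNA per cell cannot be told apart.

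By complex, 17 of 38 tested members of complex I were lower and 6 higher (median log2 fold change -0.15), and of complex II none of 4 was lower and 2 were higher (0.04). Complex III had 6 of 9 lower and none higher (-0.24), complex IV 8 of 13 lower and none higher (-0.19), and complex V 13 of 18 lower and none higher (-0.24). These calls depend on the scaling. With library size alone the median of all tested genes moved to 0.22, 43.6% of genes were called higher and 16.2% lower, and the members were 29 higher and 18 lower with a median of 0.04. Relative to the all-gene median the members' median was -0.18 in both scalings, which had to be so because this change of scaling moves all genes alike. When the trend of fold change with GC content, exon length and mean level over all tested genes was removed, 28 members were higher and 18 lower with a median of 0.05, beside 28.1% higher, 24% lower and a median of 0.03 for all genes. In that fit the medians of complexes I and IV turned positive (0.05 and 0.08), while those of complexes III and V stayed negative (-0.12 and -0.07).

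**Figure D1:**
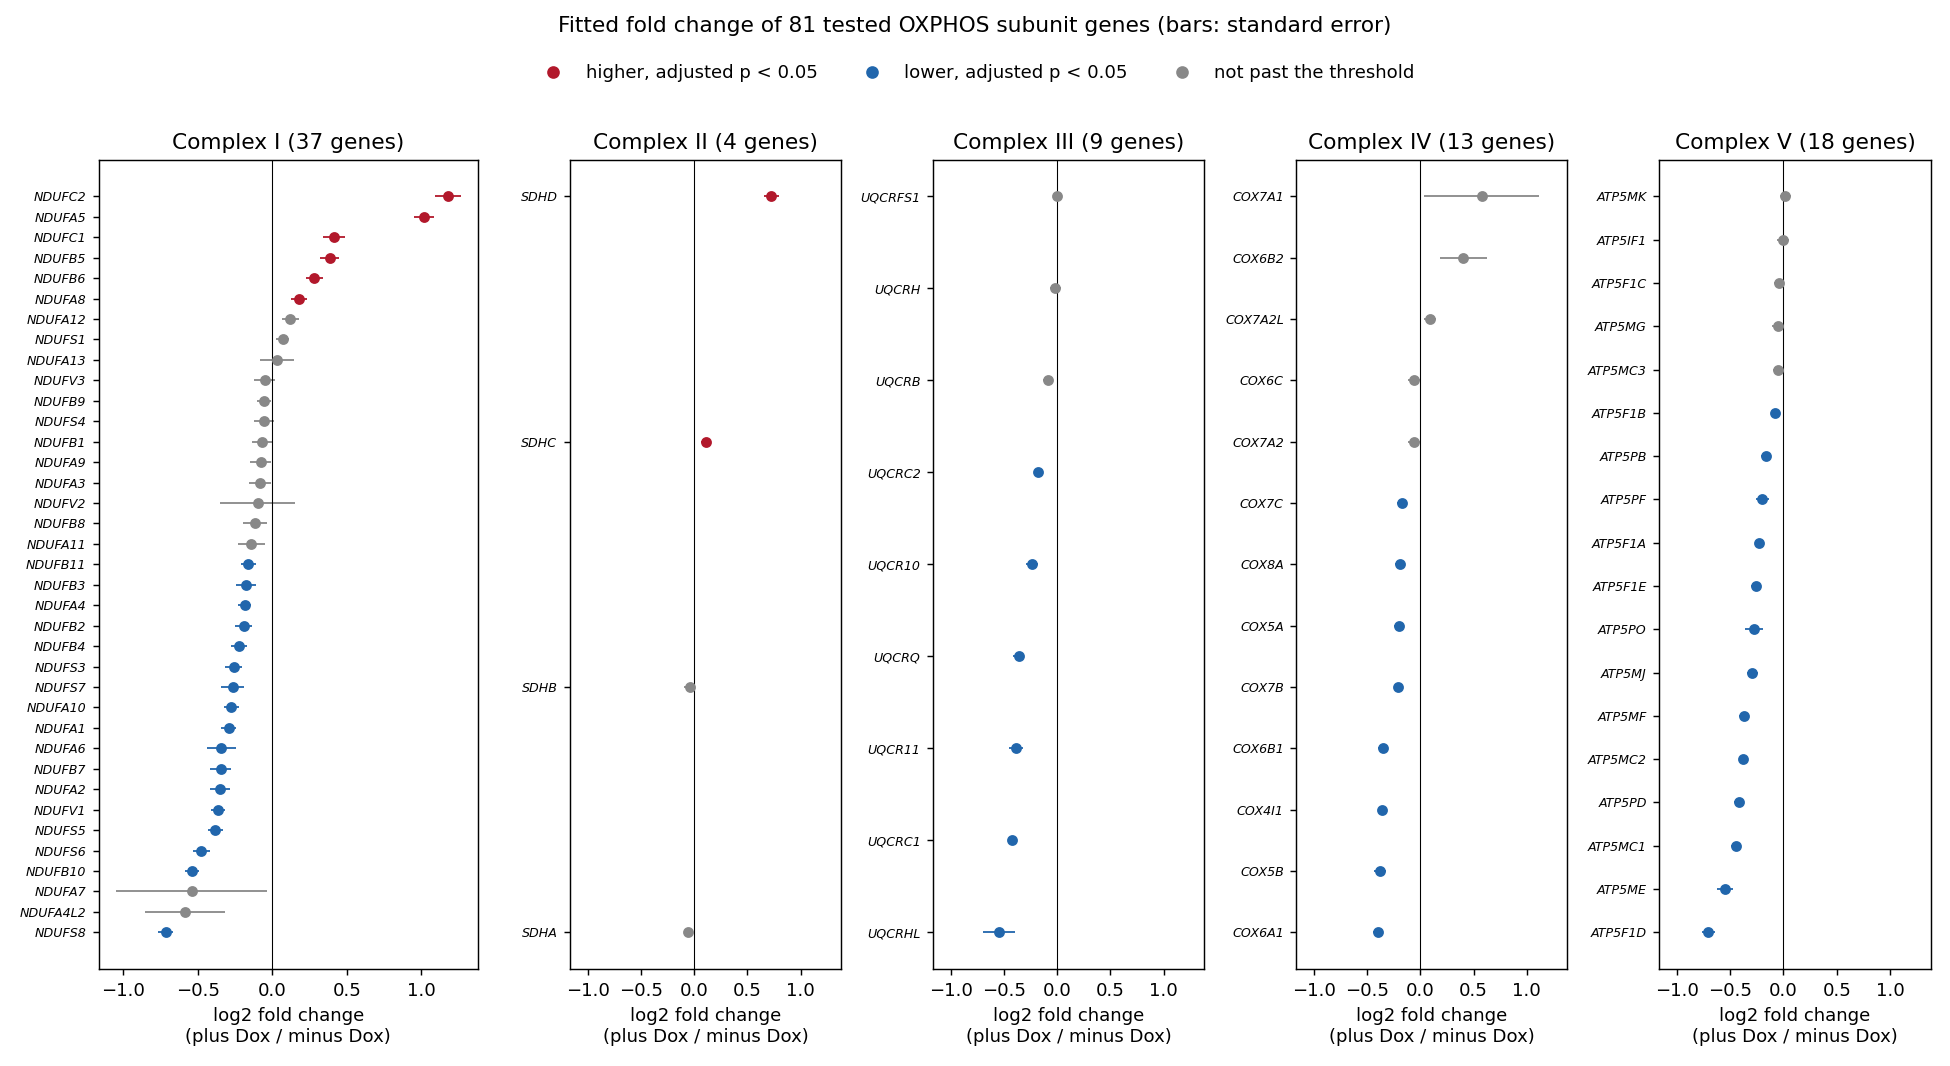
Fitted log2 fold change (plus Dox over minus Dox, x axis) of 81 of the 82 tested members, 1 panel per complex, with bars for the standard error and colours for the call with TMM scaling. Complexes III, IV and V hold no member called higher in this fit, while with library size alone 3, 4 and 6 of their members were called higher.

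**Figure D2:**
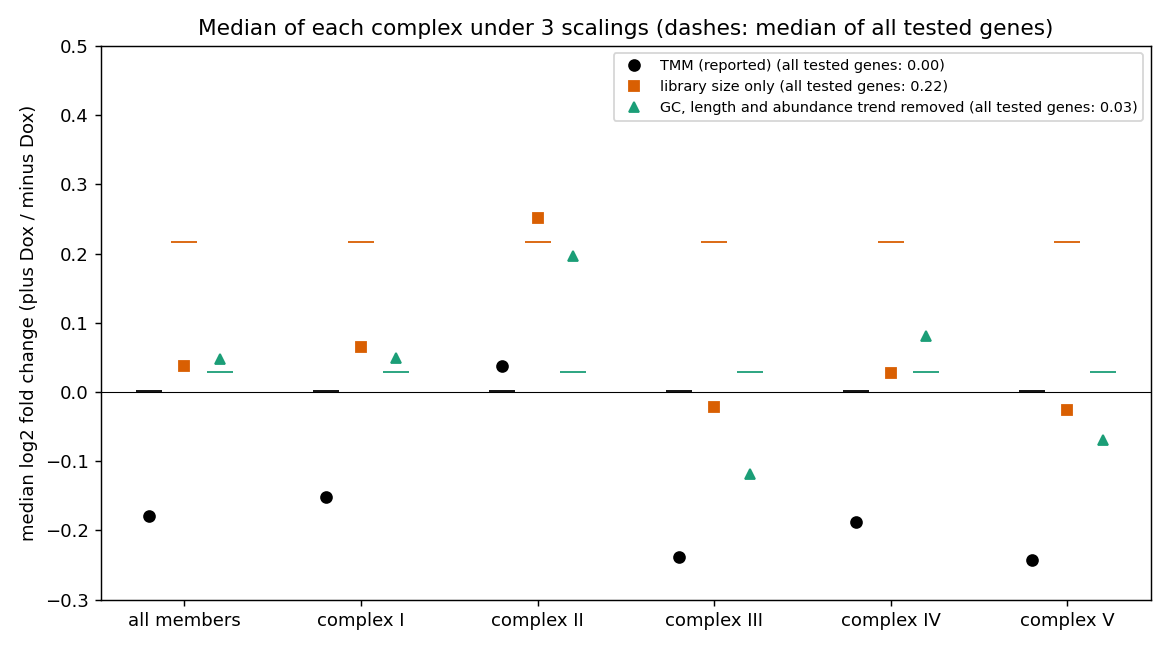
Median log2 fold change (plus Dox over minus Dox, y axis) of all members and of each complex under TMM scaling, library size alone, and with the GC, length and level trend removed, with dashes for the median of all tested genes in the same fit. All members together lie 0.18 below the dash in the first 2 fits, between which all genes move alike. In the third fit they lie 0.02 above the dash, and complex II lies above it in all 3.

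Complex I had the widest range of fold changes, from -0.72 to 1.18 on the log2 scale, and also the most tested members (38). The median of the absolute changes was 0.24 in complexes I, III and V, 0.21 in complex IV and 0.09 in complex II. The 7 nuclear core subunits of complex I carry the flavin and the iron-sulfur clusters that lead electrons to ubiquinone. Of these, 4 were lower and none higher with TMM scaling, while 2 were higher and 2 lower with library size alone, and 2 higher and 3 lower with the trend removed. NDUFS8 (ENSG00000110717, chr11:68030617-68036644), which holds a pair of iron-sulfur clusters next to the quinone site, stood at 120 and 128 CPM without doxycycline and at 74.5 and 77.0 CPM with it. It fell 1.64-fold (log2 fold change -0.72, SE 0.05, adjusted p = 4.51e-15), and the groups did not overlap. NDUFV1, the subunit that binds NADH and flavin, stood at 139 and 140 CPM and then at 104 and 113 CPM (-0.37, SE 0.05, adjusted p = 2.12e-08). NDUFS3 and NDUFS7 were lower by 0.26 and 0.27 on the log2 scale with TMM scaling and did not pass with library size alone, and NDUFS3 did not pass with the trend removed either (-0.11). About 49.1% of the exon bases of NDUFS7 are shared with other annotated genes. The call of NDUFS7 was lost without plus Dox replicate 1 (adjusted p = 0.0689). NDUFS1, the largest core subunit (130 ± 1.58 to 137 ± 4.51 CPM, SD, n = 2), did not pass the test with TMM scaling, and was called higher with library size alone (0.29) and with the trend removed (0.10). NDUFV2 was counted at only 2.02 ± 0.388 CPM without doxycycline, 28.4% of its exon bases are shared with another gene, and a pseudogene named for it (NDUFV2P1) took 71 to 90 reads per library.

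The 6 members of complex I that rose are accessory subunits, which surround the core and are needed for its assembly or stability. NDUFC2 (ENSG00000151366, chr11:78068304-78080219), a small subunit of the membrane arm, had 18.6 and 14.3 CPM without doxycycline and 38.5 and 35.7 CPM with it. It rose 2.26-fold (log2 fold change 1.18, SE 0.09, adjusted p = 5.37e-14), the largest rise of any member. NDUFA5 (ENSG00000128609, chr7:123536997-123558255), in the peripheral arm, had 28.9 and 26.7 CPM and then 54.8 and 57.8 CPM. Its rise was 2.03-fold (1.02, SE 0.07, adjusted p = 8.85e-16) and came to 0.34 on the log2 scale with the trend removed. Both genes had each plus Dox library far above each minus Dox library. NDUFC1 rose by 0.41 on the log2 scale (23.2 ± 1.21 to 30.8 ± 0.0771 CPM), NDUFB6 by 0.28 (50.5 ± 2.89 to 61.4 ± 0.329 CPM) and NDUFA8 by 0.18 (62.7 ± 0.112 to 70.9 ± 0.739 CPM; SD, n = 2 throughout). NDUFB5 rose by 0.39 (33.3 ± 1.10 to 43.5 ± 0.268 CPM), and with the trend removed its change was 0.006. NDUFA8 lost its call without plus Dox replicate 1 (0.17, adjusted p = 0.0873).

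A further 13 accessory members of complex I were lower with TMM scaling, while with library size alone 10 of the 31 tested accessory members were higher and 3 lower, and with the trend removed 11 were higher and 2 lower. NDUFB10, a disulfide-rich subunit of the membrane arm, stood at 135 and 149 CPM without doxycycline and at 100 and 95.5 CPM with it (log2 fold change -0.54, SE 0.05, adjusted p = 9.04e-12). It came to -0.03 with the trend removed. NDUFS6, which carries a zinc ion, went from 64.2 ± 1.43 to 46.1 ± 1.66 CPM, and NDUFS5 from 105 ± 3.91 to 80.3 ± 1.44 CPM. With the trend removed NDUFS5 was called higher (0.27) and NDUFS6 did not pass (-0.08). NDUFB7, NDUFA2 and NDUFA6 were lower by 0.35, 0.35 and 0.34 on the log2 scale with TMM scaling, and none of the 3 passed with library size alone or with the trend removed. NDUFA6 lost its call without plus Dox replicate 1 (adjusted p = 0.0845). NDUFA4, placed here by its symbol but found in complex IV, had 138 and 136 CPM and then 120 and 121 CPM (-0.19, SE 0.04), with 0.03 under library size alone and -0.36 with the trend removed. Counting NDUFA4 and its paralog NDUFA4L2 with complex IV kept every count of calls in complexes I and IV within 1.5 times. The lowest accessory value belonged to NDUFA4L2 (2.15 ± 0.0973 to 1.44 ± 0.502 CPM, log2 fold change -0.59, SE 0.27), which did not pass the test and was called lower without plus Dox replicate 2 (-0.99).

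**Figure D3:**
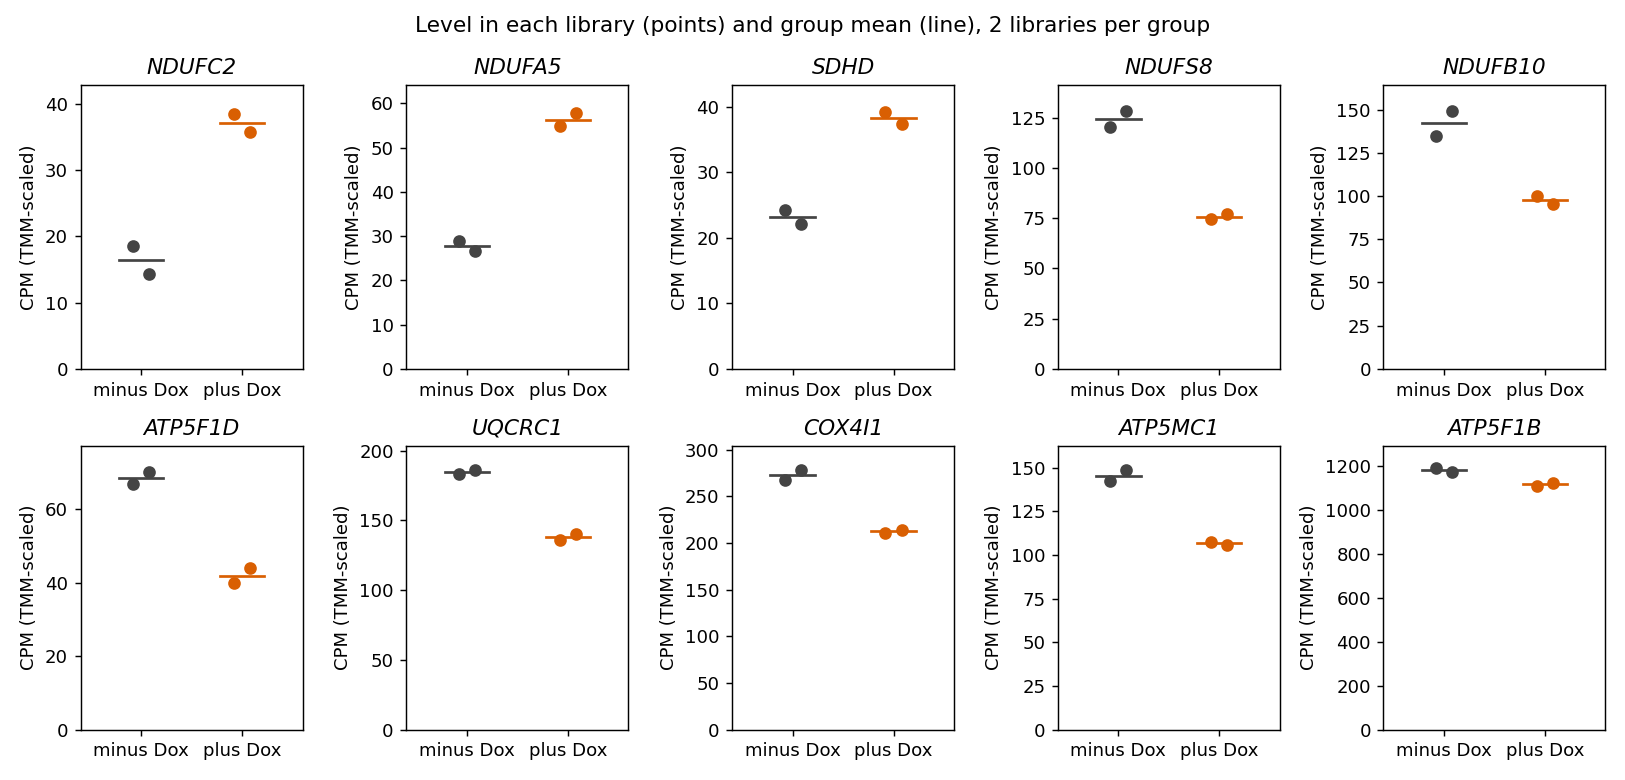
TMM-scaled CPM (y axis, from 0) of 10 members in each of the 4 libraries, with a line at the mean of each group of 2. NDUFC2, NDUFA5 and SDHD lie higher in both plus Dox libraries and the other 7 lie lower, although ATP5F1B was higher with library size alone (log2 fold change 0.13), and with the trend removed.

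Complex II oxidises succinate and is shared with the tricarboxylic acid cycle. Its members split by position: both membrane anchors were higher, and neither catalytic subunit passed the test. SDHD (ENSG00000204370, chr11:112086773-112120013), the small anchor that helps bind ubiquinone and heme, stood at 24.3 and 22.1 CPM without doxycycline and at 39.3 and 37.4 CPM with it. It rose 1.65-fold (log2 fold change 0.73, SE 0.07, adjusted p = 8.99e-11), with no overlap between the groups. SDHC, the other anchor, went from 106 and 101 CPM to 113 and 111 CPM, a smaller rise (0.11, SE 0.05, adjusted p = 0.0341). Its call was lost in DESeq2, without the filter on low counts, and on leaving out minus Dox replicate 2 or either plus Dox library. SDHA, the flavoprotein, had 233 and 238 CPM and then 225 and 227 CPM (-0.06, SE 0.04), and the iron-sulfur subunit SDHB had 80.5 and 76.0 CPM and then 74.8 and 77.2 CPM (-0.04, SE 0.05). All 4 genes were called higher with library size alone and with the trend removed, where SDHA and SDHB came to 0.20 each. SDHA was called lower when minus Dox replicate 1 was left out (-0.09, adjusted p = 0.034).

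Complex III passes electrons from ubiquinol to cytochrome c. Its catalytic Rieske iron-sulfur protein UQCRFS1 had 251 and 255 CPM without doxycycline and 257 and 247 CPM with it (log2 fold change -0.005, SE 0.04), and the groups overlapped. UQCRFS1 was called higher with library size alone (0.21) and with the trend removed (0.23). The large core proteins UQCRC1 and UQCRC2, which face the matrix, were both lower. UQCRC1 (ENSG00000010256, chr3:48599002-48610976) stood at 183 and 186 CPM and then at 136 and 140 CPM, a 1.34-fold fall (-0.42, SE 0.04, adjusted p = 8.20e-11). UQCRC2 had 188 and 184 CPM and then 162 and 165 CPM (-0.18, SE 0.04, adjusted p = 2.86e-04), and its change was 0.03 with library size alone. With the trend removed UQCRC2 was called lower (-0.12). Of the small accessory subunits, UQCRQ had 90.0 and 94.35 CPM and then 69.4 and 73.95 CPM (-0.36, SE 0.05, adjusted p = 1.69e-07), and came to 0.07 with the trend removed. UQCR11 had 43.2 and 41.3 CPM and then 32.7 and 31.65 CPM (-0.39, SE 0.07, adjusted p = 3.98e-06). In both genes the plus Dox libraries lay below the others. UQCR10 was lower with TMM scaling (-0.24), did not pass with library size alone (-0.02) and was called higher with the trend removed (0.27). UQCRB (155 ± 4.13 to 146 ± 5.56 CPM) and UQCRH (82.8 ± 6.02 to 81.6 ± 1.91 CPM) did not pass the test with TMM scaling. Without plus Dox replicate 1 the call of UQCR10 was lost (adjusted p = 0.0625), and without minus Dox replicate 2 UQCRB was called lower (-0.12). UQCRB was called higher with library size alone (0.13) and lower with the trend removed (-0.44), and UQCRH was called higher in both fits (0.20 and 0.40). The lowest value of the complex was that of UQCRHL, 6.30 and 6.32 CPM and then 4.69 and 3.94 CPM (-0.55, SE 0.15, adjusted p = 0.00219), a call lost with library size alone (adjusted p = 0.0574). UQCRHL is a near-identical copy of UQCRH, so its reads cannot be assigned with certainty.

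Complex IV reduces oxygen, with its metal centres in subunits made from mitochondrial DNA, and its nuclear members surround and regulate them. All 8 members that changed were lower with TMM scaling. Of these 8, 4 were lower and 4 did not pass with library size alone, where 4 of the other 5 tested members were higher. With the trend removed 3 of the 8 were higher, 2 lower and 3 did not pass. COX6A1 (ENSG00000111775, chr12:120438090-120440742) stood at 124 and 126 CPM without doxycycline and at 90.8 and 99.1 CPM with it, a 1.32-fold fall (log2 fold change -0.40, SE 0.05, adjusted p = 6.82e-09) with TMM scaling. It was called lower with library size alone too (-0.18), and with the trend removed its sign turned (0.08, adjusted p = 0.193). COX4I1, the common form of the largest nuclear subunit, had 267 and 278 CPM and then 211 and 214 CPM (-0.36, SE 0.04, adjusted p = 6.14e-10). It was lower in each scaling, at -0.15 with library size alone and -0.10 with the trend removed. COX6B1, which bridges the monomers of the dimer, had 262 and 284 CPM and then 212 and 215 CPM, and the zinc-binding COX5B had 73.2 and 78.0 CPM and then 55.3 and 61.2 CPM. In both genes the groups were apart, and both signs turned with the trend removed (0.31 for COX6B1 and 0.04 for COX5B). COX7B (-0.21), COX5A (-0.20), COX8A (-0.19) and COX7C (-0.17) were lower with TMM scaling, and none of the 4 passed with library size alone. With the trend removed COX5A and COX8A were called higher (0.33 and 0.47), COX7B stayed lower (-0.20) and COX7C did not pass. The call of COX8A was also lost without plus Dox replicate 1 (adjusted p = 0.125). COX6C, COX7A2, COX7A2L, COX6B2 and COX7A1 did not pass with TMM scaling. COX7A1, with the highest fold change of the complex (0.58), stood at only 0.207 and 0.427 CPM and then 0.540 and 0.418 CPM, so its groups overlapped. COX6B2 was called higher with library size alone (0.62) and when minus Dox replicate 2 was left out (0.83), and COX6C was called lower in the latter fit (-0.14). COX6C and COX7A2 (0.16 each) and COX7A2L (0.31) were called higher with library size alone.

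Complex V makes ATP in its soluble head, F1, which is held by a peripheral stalk against a turning ring of c subunits in the membrane. In the head, 4 of 5 subunits were lower with TMM scaling, while with library size alone 2 were higher and 1 lower, and with the trend removed 3 were higher and 2 lower. ATP5F1D (ENSG00000099624, chr19:1241746-1244826), the delta subunit at the foot of the central stalk, had 66.7 and 70.0 CPM without doxycycline and 39.9 and 43.9 CPM with it. It fell 1.63-fold (log2 fold change -0.71, SE 0.06, adjusted p = 1.27e-12). ATP5F1E, the epsilon subunit beside it, had 140 and 139 CPM and then 116 and 117 CPM (-0.26, SE 0.04), and came to -0.04 with library size alone and -0.59 with the trend removed. The catalytic beta subunit ATP5F1B was the most abundant member per length, at 509 CPM per kb of exon without doxycycline and 480 CPM per kb with it. Its levels were 1190 and 1172 CPM and then 1107 and 1122 CPM, a change of -0.08 (SE 0.03, adjusted p = 0.0248) that turned to 0.13 with library size alone and 0.67 with the trend removed. Its call was also lost on leaving out either plus Dox library (adjusted p = 0.253 and 0.129). ATP5F1A, the alpha subunit, was at -0.23 (477 ± 8.25 to 408 ± 5.99 CPM) did not pass with library size alone (-0.01) and was called higher with the trend removed (0.11). ATP5F1C, the gamma subunit that turns inside the head, had 193 and 181 CPM and then 182 and 181 CPM (-0.04, SE 0.04) and did not pass. It was called lower without minus Dox replicate 2 (-0.10), and higher with library size alone (0.17) and with the trend removed (0.13).

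All 4 members of the peripheral stalk were lower with TMM scaling, while 1 of them (ATP5PD) was lower and none higher with library size alone, and likewise with the trend removed. ATP5PD, the d subunit, stood at 124 and 121 CPM and then at 92.6 and 90.6 CPM (log2 fold change -0.42, SE 0.05, adjusted p = 1.02e-09). ATP5PB (-0.17), ATP5PF (-0.20) and ATP5PO (-0.28) changed less. Calls were lost without plus Dox replicate 1 for ATP5PB (adjusted p = 0.0722) and ATP5PF (0.0584), and without minus Dox replicate 1 for ATP5PO (0.096). Of the 5 tested small membrane subunits, ATP5ME (-0.55), ATP5MF (-0.37) and ATP5MJ (-0.29) were lower with TMM scaling, and ATP5MG and ATP5MK did not pass. With library size alone ATP5MJ lost its call (-0.08), and with the trend removed ATP5ME (-0.08) and ATP5MF (-0.03) lost theirs. ATP5MG was called lower without minus Dox replicate 2 (-0.12) and higher with library size alone (0.16). ATP5MK was called higher with library size alone (0.23) and with the trend removed (0.45). The opposite strand of ATP5ME is shared with MYL5 over 61.6% of its exon bases, and without the strand setting of the counting their reads cannot be told apart. ATP5MK had the highest fold change of the complex with TMM scaling, with levels of 78.1 and 71.9 CPM and then 75.1 and 76.7 CPM (0.02, SE 0.05). The inhibitor ATP5IF1, which blocks the enzyme when it runs backwards, had 56.8 and 56.5 CPM and then 54.7 and 58.0 CPM (-0.008, SE 0.06), so the groups overlapped, and was called higher with library size alone (0.21) and with the trend removed (0.27).

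The c subunit is made from 3 genes whose mature proteins are the same and whose import signals differ. ATP5MC1 stood at 142 and 148 CPM without doxycycline and at 108 and 106 CPM with it (log2 fold change -0.45, SE 0.04, adjusted p = 9.90e-11). ATP5MC2 had 197 and 193 CPM and then 151 and 151 CPM (-0.38, SE 0.04, adjusted p = 7.40e-10). ATP5MC3 had 145 and 139 CPM and then 136 and 138 CPM (-0.05, SE 0.04, adjusted p = 0.300), and was called higher with library size alone (0.16). As a share of the counts per kb of the 3 genes, which no scaling of the library changes, ATP5MC3 went from 17.1% and 16.3% to 20.3% and 20.7%. ATP5MC1 went from 43.4% and 45.1% to 41.62% and 41.01%, and ATP5MC2 from 39.5% and 38.5% to 38.1% and 38.3%. The groups were apart for each of the 3 shares. A trend with GC content or level differs between genes and was not removed from these shares. The median log2 fold change of the 3 genes was -0.38 with TMM scaling and -0.14 with the trend removed. In the latter fit ATP5MC1 and ATP5MC2 were lower and ATP5MC3 did not pass. With 2 libraries against 2 no exact permutation test of these shares can pass the threshold, so none is given.

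**Figure D4:**
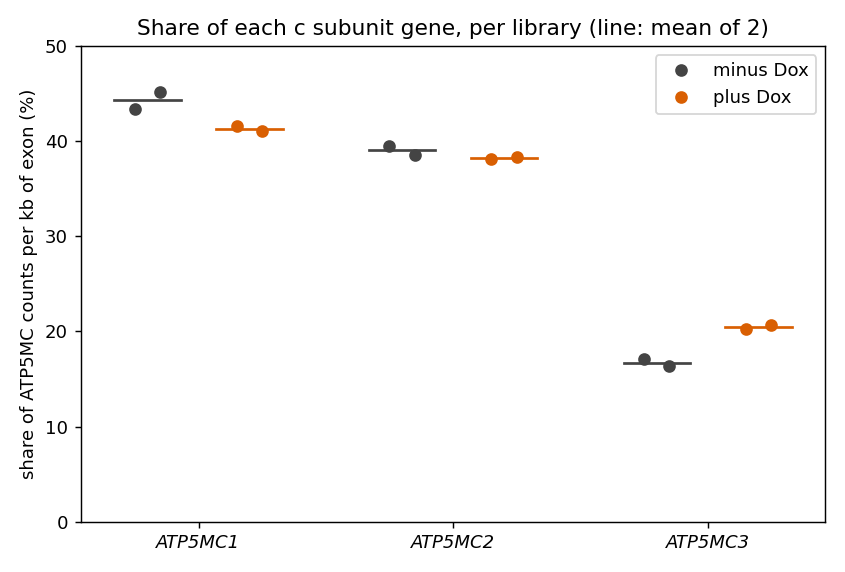
Share of each c subunit gene in the summed counts per kb of exon of the 3 genes (y axis, percent, from 0), per library, with a line at the mean of 2. The share of ATP5MC3 is higher in both plus Dox libraries (mean 20.5% against 16.7%) and that of ATP5MC1 is lower (41.3% against 44.3%). No trend with GC content or level was removed from these shares.

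Other subunits with tissue forms were counted almost wholly from the general form. COX4I1, COX6A1 and COX8A took 100% of the counts of their pairs, and COX4I2 (hypoxia and lung), COX6A2 (heart and muscle) and COX8C are listed at 0 in every library. A count of 0 allows up to 0.08 to 0.0895 CPM per library (3 counts, for counting error only). COX6B2, the testis form, was at 0.169% and 0.262% of counts per kb of its pair without doxycycline and at 0.374% and 0.367% with it. NDUFA4L2, known for its induction in hypoxia, was at 2.00% and 1.90% and then 1.13% and 1.84%. COX7A2 went from 69.6% and 70.2% to 66.1% and 68.9% of its set of 3, COX7A2L from 30.0% and 28.9% to 32.7% and 30.2%, and COX7A1, the muscle form, stayed under 1.2% in every library.

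Added over all members, the TMM-scaled level went from 8639 and 8607 CPM to 7632 and 7711 CPM, a ratio of 0.890. As a share of all counts with no scaling it went the other way, from 0.803% and 0.796% to 0.821% and 0.831%. The ratio of summed CPM was 1.03 in complex II, 0.908 in complex I, 0.886 in complex III, 0.882 in complex V and 0.845 in complex IV. Complex IV had the lowest ratio, and its share of all counts was 0.146% and 0.146% without doxycycline and 0.141% and 0.144% with it, the only one of the 5 complexes with both plus Dox shares below both minus Dox shares. Complex V held 3371 and 3308 CPM without doxycycline and 2927 and 2962 CPM with it, the largest part of the sum.

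The tested members had short exon models, with a median of 2545 bp against 5082 bp over all 13964 tested protein-coding genes, and a median of 75.1 CPM without doxycycline against 26.7 CPM. Their median transcript GC content was 48.4%, against 49.8%. Members that fell had a median GC content of 50.9%, those that did not pass 46.8%, and those that rose 45.2%. Among the 41 members with GC content above the members' median, 27 were lower and 2 higher with TMM scaling (median log2 fold change -0.29). Among the 41 at or below it, 17 were lower and 6 higher (-0.07). Across the 82 members, which share the same 4 libraries and are not independent replicates, log2 fold change and GC content had Pearson's r of -0.37 and Spearman's rho of -0.44. Across protein-coding genes these were -0.17 and -0.30, so GC content moved with fold change outside the members too.

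**Figure D5:**
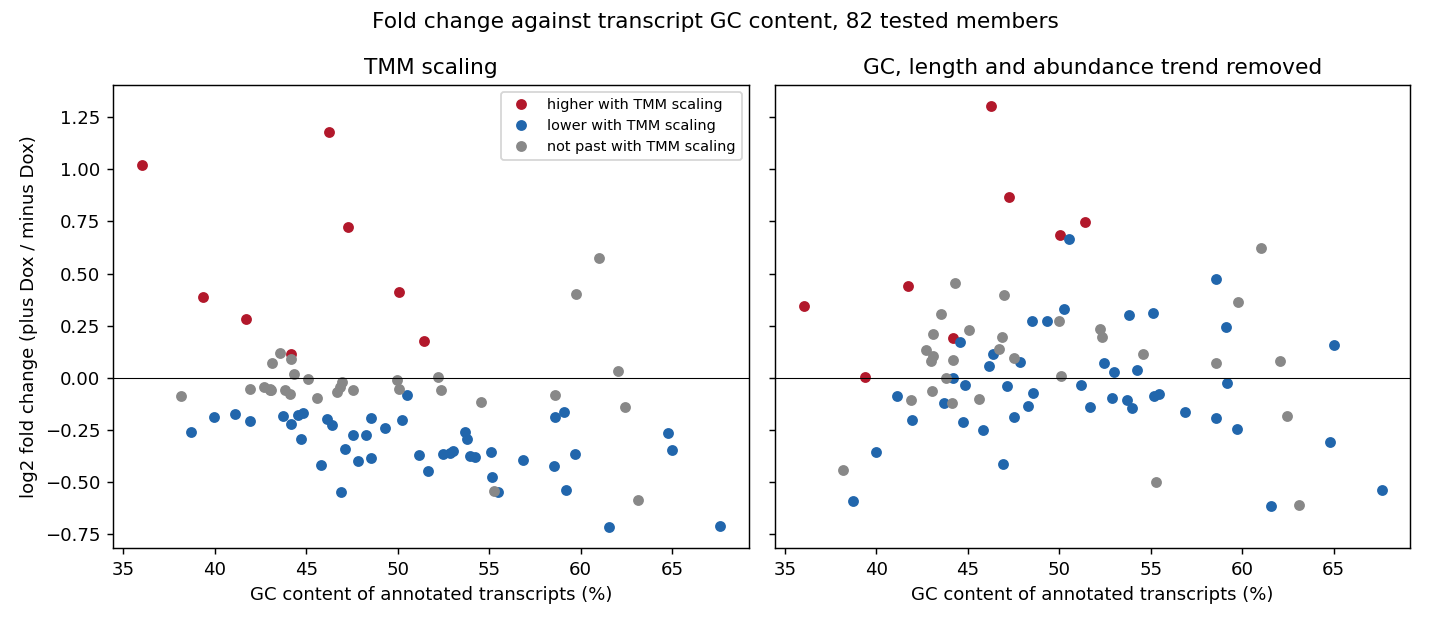
Log2 fold change (plus Dox over minus Dox, y axis) against transcript GC content (percent, x axis) of the 82 tested members, with TMM scaling on the left and with the GC, length and level trend over all tested genes removed on the right, coloured by the call with TMM scaling. On the left members of high GC content lie lower, and on the right 10 members called lower with TMM scaling are called higher.

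Some members were called the same way in each of the 12 fits run, which differ in scaling, filter, tool, replicate block, trend removal and the library left out. These were 5 that rose (NDUFA5, NDUFB6, NDUFC1, NDUFC2 and SDHD) and 9 that fell (NDUFS8, NDUFV1, UQCRC1, UQCR11, COX4I1, ATP5F1D, ATP5MC1, ATP5MC2 and ATP5PD). The share of all tested genes that meets the same rule was not computed. These counts therefore list members and do not set them apart from other genes. Over these fits NDUFC2 ranged from 0.99 to 1.39 on the log2 scale, SDHD from 0.65 to 0.94 and NDUFA5 from 0.34 to 1.24. NDUFS8 ranged from -0.77 to -0.50, ATP5F1D from -0.78 to -0.49, and COX4I1, the smallest of the 9 at its upper end, from -0.40 to -0.10. Members that fell in all 12 fits came from complexes I, III, IV and V, and members that rose in all 12 from complexes I and II. 

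The background share moved with these settings too. DESeq2 called 7 members higher and 42 lower, beside 19.9% and 21% of all genes it gave an adjusted p. Without the filter on low counts 7 members were higher and 45 lower, beside 15.4% and 16.2% of genes. A fitted change of at least 1.2-fold as well was met by 27 lower members, beside 23.9% of genes higher and 22.2% lower. Of the members called higher, NDUFC2, NDUFA5, NDUFC1, NDUFB5, NDUFB6 and SDHD met it, and NDUFA8 and SDHC did not. Leaving out plus Dox replicate 1 lowered the number of members called lower from 44 to 34 and left 6 higher, the largest effect of any library, beside 22.3% of genes higher and 22.6% lower. Without plus Dox replicate 2 there were 7 higher and 43 lower (22.4% and 23.1% of genes). Without minus Dox replicate 1 there were 8 and 44 (26.1% and 27.2%), and without minus Dox replicate 2 there were 8 and 48 (24.7% and 25.9%).

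The genes that build the complexes were described from lists of named factors. Of 56 assembly factors of the 5 complexes 14 were higher, 22 lower and 20 did not pass (median log2 fold change -0.02). With library size alone 28 were higher and 8 lower, and with the trend removed 14 and 15. Over all tested genes 28.4% were higher and 28.4% lower with TMM scaling, and 43.6% and 16.2% with library size alone. With the trend removed these shares were 28.1% and 24%. The counts by complex below stand beside the same shares. For complex I, 10 of 18 were lower and 3 higher with TMM scaling, while 4 were lower and 7 higher with library size alone. The lowest adjusted p values were those of NDUFAF8 (65.1 ± 3.21 to 45.8 ± 0.574 CPM, -0.51), ECSIT (39.4 ± 3.24 to 26.3 ± 1.44 CPM, -0.58) and NDUFAF2 (22.6 ± 1.37 to 16.1 ± 0.924 CPM, -0.48). All 3 were also lower with library size alone and with the trend removed. NDUFAF4, TMEM126B and NDUFAF5 were the 3 that rose, by 0.41, 0.39 and 0.22, and with the trend removed they did not pass.

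For complex II, whose anchors rose, SDHAF3 (0.48) and SDHAF4 (0.37) were higher, SDHAF2 (-0.51), which helps attach flavin to SDHA, was lower, and SDHAF1 (0.07) did not pass with TMM scaling but was called higher with library size alone (0.28) and with the trend removed (0.42). For complex III, LYRM7, which hands over the Rieske protein, went from 14.4 ± 0.988 to 23.4 ± 1.29 CPM (0.71, adjusted p = 1.06e-08), and came to 0.09 with the trend removed. BCS1L, which inserts that protein, was at -0.52, UQCC3 at -0.60 and TTC19 at -0.25, and TTC19 did not pass with library size alone. UQCC1 and UQCC2 did not pass, though UQCC1 was called higher with library size alone (0.26) and with the trend removed (0.14). For complex IV, 6 of 23 were higher and 8 lower with TMM scaling, while 12 were higher and 1 lower with library size alone. The copper factors COX11 (61.8 ± 0.730 to 87.9 ± 4.02 CPM, 0.51) and COX17 (25.9 ± 0.886 to 35.6 ± 0.438 CPM, 0.46) rose, and COA3, an early translation partner, fell (62.4 ± 0.788 to 47.2 ± 1.52 CPM, -0.40) but came to -0.11 with the trend removed. For complex V, TMEM242 (0.39) and TMEM70 (0.29), both needed to build the c ring, rose, and ATPAF1, ATPAF2 and FMC1 did not pass. ATPAF1 (0.31) and ATPAF2 (0.38) were called higher with library size alone, and likewise with the trend removed (0.15 and 0.19).

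Electron carriers and subunits with other symbols gave a mixed picture. CYCS, which encodes cytochrome c, had 114 and 125 CPM without doxycycline and 226 and 217 CPM with it (log2 fold change 0.89, SE 0.04, adjusted p = 8.43e-19). CYC1, the cytochrome c1 subunit of complex III, had 228 and 235 CPM and then 179 and 180 CPM (-0.37, SE 0.04, adjusted p = 7.20e-10), and came to 0.01 with the trend removed. The carrier and its docking subunit thus changed in opposite directions with TMM scaling and with library size alone (1.11 for CYCS and -0.15 for CYC1). NDUFAB1, the acyl carrier protein of complex I, rose by 0.23 and DMAC2L, a factor of complex V listed as ATP5S in GENCODE 29, by 0.59. In the synthesis of coenzyme Q, 3 of 13 genes were higher and 3 lower with TMM scaling, while 9 were higher and none lower with library size alone. The shares over all tested genes were 28.4% higher and 28.4% lower with TMM scaling, and 43.6% and 16.2% with library size alone. COQ10B, a coenzyme Q binding protein, went from 20.4 ± 1.98 to 39.8 ± 0.476 CPM (0.97, adjusted p = 1.40e-13), COQ7 rose by 0.49 and PDSS2 by 0.25 (not past the threshold with the trend removed), and COQ9 (-0.28), COQ4 (-0.34) and COQ8B (-0.19) were lower but did not pass with library size alone.

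Of 14 regulators of mitochondrial gene expression and biogenesis, 7 were lower and 2 higher with TMM scaling, while 6 were lower and 5 higher with library size alone, and 6 lower and 3 higher with the trend removed. In the same fits and order, 28.4%, 16.2% and 24% of all tested genes were lower, and 28.4%, 43.6% and 28.1% higher. MYC went from 149 ± 5.30 to 50.8 ± 2.02 CPM (log2 fold change -1.56, adjusted p = 1.64e-24), POLRMT, the mitochondrial RNA polymerase, from 124 ± 2.31 to 73.2 ± 2.67 CPM (-0.76), and PPRC1, a coactivator of the PGC-1 family, from 170 ± 8.64 to 114 ± 0.666 CPM (-0.58). All 3 stayed lower with library size alone and with the trend removed. PPARGC1A, of the same family as PPRC1 and picked after its value was seen, fell too (13.6 ± 0.970 to 6.71 ± 0.118 CPM, -1.015). It was lower with library size alone (-0.80) and with the trend removed (-1.14), and PPARGC1B did not pass in any of these fits. The factors whose strings were searched in the promoters were picked after their values were seen. NRF1 had 24.4 and 24.9 CPM and then 17.8 and 17.2 CPM (-0.50, SE 0.08, adjusted p = 2.53e-06). GABPA, the DNA-binding part of GABP, had 15.6 and 17.0 CPM and then 31.02 and 31.95 CPM (0.95, SE 0.08, adjusted p = 9.97e-13). YY1 (183 ± 2.34 to 187 ± 1.93 CPM) did not pass with TMM scaling, and was called higher with library size alone (0.25) and with the trend removed (0.22). TFAM, which packages mitochondrial DNA, was the other regulator that rose (68.1 ± 4.43 to 98.9 ± 0.0227 CPM, 0.54). NRF1 was lower and GABPA and TFAM higher with library size alone and with the trend removed as well, at 0.27 for GABPA and 0.23 for TFAM in the latter.

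In the tricarboxylic acid cycle, which supplies NADH and succinate, 9 of 14 genes were lower and 4 higher with TMM scaling, while 1 was lower and 5 higher with library size alone, and 3 lower and 6 higher with the trend removed. Of all tested genes 28.4%, 16.2% and 24% were lower in these fits, in that order, and 28.4%, 43.6% and 28.1% higher. OGDH, the first enzyme of the 2-oxoglutarate dehydrogenase complex, went from 194 ± 6.20 to 277 ± 3.85 CPM (log2 fold change 0.52, adjusted p = 1.19e-13). DLD, its dihydrolipoamide dehydrogenase, went from 135 ± 10.3 to 184 ± 1.02 CPM (0.45), IDH2 from 43.7 ± 0.682 to 64.3 ± 1.65 CPM (0.56) and IDH3A from 63.6 ± 2.50 to 88.8 ± 1.44 CPM (0.48). All 4 also rose with library size alone and with the trend removed. Other subunits of the same enzymes were lower with TMM scaling, namely IDH3B (-0.16), IDH3G (-0.26) and DLST (-0.15). None of these 3 passed with library size alone, and with the trend removed IDH3B was called higher (0.14). SUCLA2 did not pass with TMM scaling, and was called higher with library size alone (0.30) and lower with the trend removed (-0.14).

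Of the 7 members that were not tested, COX4I2, COX6A2, COX7B2, COX8C and ATP5MGL are listed at 0 in every library. NDUFC2-KCTD14 (1 read in all) and ATP5MF-PTCD1 (0.0568 to 0.160 CPM) are readthrough genes that join a member to a neighbouring gene, and 100% and 93.8% of their exon bases are shared with other annotated genes, the member among them. For 14 members over 25% of exon bases are shared with another annotated gene, and their values are uncertain because the strand setting is not given. Among 173 pseudogenes whose symbols match the same families, COX6A1P2 (229 to 305 reads), UQCRFS1P1 (188 to 232 reads) and NDUFV2P1 had the most reads. NDUFA7, an accessory member of complex I with 33.5% shared exon bases, was counted at only 0.595 ± 0.162 and 0.403 ± 0.233 CPM.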

How the data were processed

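The authors deposited 1 table of raw counts by Ensembl gene for each library, not normalized, per the file headers. A stranded mRNA kit and paired-end reads were used, per the labels' protocols. The submitters' processing notes name DRAGEN, cutadapt 4.0, STAR 2.7.10b, featureCounts 2.0.3, DESeq2 2.11.40.7 and hg38, with no role or order. Which annotation release and strand setting were used is not given in the sources used here. Gene symbols came from a table of Ensembl IDs (56948 of 58051 IDs matched), and biotypes, exon lengths and GC content from GENCODE 29 (57447 matched). Promoters came from RefSeq (GRCh38.p14).

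The filterByExpr function of edgeR 4.0.16 (R 4.3.3) kept 18046 genes, which were scaled by TMM (factors 0.926 to 1.08) and tested with its quasi-likelihood test of group over all 4 libraries, with Benjamini-Hochberg adjustment over all tested genes. The code was tested on simulated data. Alternatives were other scalings, no filter, DESeq2 1.42.0, a replicate block, each library left out, a trend of GC content, length and level removed (mgcv 1.9.3), a fold minimum of 1.2 and overlapping members left out. Members, lists and tests were chosen with earlier results of these data known. Values in each library are given for the 4 members per complex with the lowest adjusted p, the highest and lowest fold change of each complex and, as shares, the paralog sets, and for other members chosen after their values were seen. From each related list up to 3 genes with the lowest adjusted p are named, and others named there were chosen after their values were seen. Replicates within a group differed beyond counting noise (chi-square per degree of freedom 4.13 and 2.25), so each library was counted as 1 sample. The values of 1 member are not reported here.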

Additional observations from a re-analysis of the deposited data

How the results depend on the processing

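The direction of the members as a group depended on the scaling. With library size alone, members higher numbered 29 in all, 12 in complex I, 4 in II, 3 in III, 4 in IV and 6 in V, and members lower 18, 5, 0, 3, 4 and 6. The medians were then 0.037, 0.065, 0.252, -0.022, 0.028 and -0.026 in the same order. With the GC, length and level trend removed, members higher numbered 28, 13, 4, 3, 3 and 5, members lower 18, 5, 0, 5, 2 and 6, and the medians were 0.048, 0.049, 0.196, -0.119, 0.081 and -0.070. DESeq2's size factors and upper quartile scaling within edgeR gave the main counts. DESeq2 gave 7 higher and 42 lower and the fit without the count filter 7 and 45, with 1 higher in complex II in each. A fold minimum of 1.2 left 27 lower members in all, 11 in complex I, 4 in complex IV and 8 in complex V, and 1 higher in complex II. Leaving out each library in turn gave 6 to 8 members higher and 34 to 48 lower, and 12 to 17 lower in complex I with a median of -0.185 to -0.132. A group left with 1 library was taken to vary like the other. These fits gave 1 to 2 higher and 0 to 1 lower in complex II and 0 to 1 higher in complex IV. Isoform shares from counts not divided by length moved by 5.29 percentage points for ATP5MC3, -2.26 for ATP5MC2 and 0.619 for COX6B2. Over the 82 tested members the sign turned from negative to positive for 32 with library size alone (12 of them called lower with TMM scaling) and for 29 with the trend removed (16 of them called lower). Among the 31 members followed through all alternatives, library size alone turned ATP5MC3 (0.162), COX7A2 (0.156), COX8A (0.028), NDUFA4 (0.030), SDHA (0.158), SDHB (0.174), UQCRC2 (0.035) and UQCRFS1 (0.211). Among these 31 the trend removal turned COX5B (0.039), COX6A1 (0.076), COX6B1 (0.311), COX7A2 (0.081), COX8A (0.473), SDHA (0.195), SDHB (0.197), UQCRFS1 (0.228) and UQCRQ (0.073). With 1 library left out ATP5MK ranged from -0.049 to 0.067, and UQCRFS1 from -0.035 to 0.021. The cause of these changes was not tested, beyond the shift of the all-gene median by library-size scaling. Of 341 alternative values for these 31 members 305 kept their direction and side of the threshold. This total pools unlike fits. DESeq2's size factors and upper quartile scaling, which hardly differ from TMM here, kept all 31. Library size alone kept 19 and the trend removal kept 20. The replicate numbers share only a number (same-numbered libraries deviated with a correlation of 0.00226), and a replicate block gave 8 members higher and 45 lower. Counting NDUFA4 and NDUFA4L2 with complex IV, and leaving out readthrough genes, UQCRHL and members under 1 CPM, were chosen after the data were seen and kept the counts within 1.5 times. Members under about 1 CPM (NDUFA7, COX7A1) rest on few reads, and changes of the size fitted for them did not pass the test at this depth.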
